A study of Homo sapiens with 4 samples.

Results

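RNA-Seq and m6A-Seq were performed on A549 cells, an established human lung adenocarcinoma line, and each condition yielded its own list of m6A peaks. The regions described here are the 5' UTR peaks that 1 list holds and the other does not. They are the distinct peaks annotated as 5' UTR whose exonic blocks share no base with a block of any peak of the other list on the same strand. By this rule 3331 of the 58401 distinct peaks of both lists were found in 1 condition. The list of the control cells (shNC) gave 1857 of them and the list of the YTHDF2-knockdown cells (shY2-2) gave 1474. Members were thus selected on the measured values that decide whether a peak is called in each list. The shNC cells carried a control vector and the shY2-2 cells stably carried a lentiviral shRNA against YTHDF2 after puromycin selection. Poly(A) RNA of each condition was fragmented and sequenced once before (input) and once after pull-down with an antibody against m6A (IP), which makes 4 libraries. A peak is therefore the IP library of a condition set against its input library, and differences between conditions rest on single libraries without replicates.

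N6-methyladenosine (m6A) is the most common internal modification of mRNA, and most of it lies near stop codons and in 3' UTRs. Antibodies against m6A also bind m6Am, a modified adenosine next to the cap, so a signal at the very 5' end can come from either mark. 5' UTR m6A is known for its part in cap-independent translation, for instance of heat shock mRNAs, and YTHDF2 is a cytoplasmic reader that binds m6A and recruits the CCR4-NOT deadenylase to the bound mRNA. m6A is written in a DRACH context, in which GGAC is the most frequent core.

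Short reference sequences of GRCh38 around a GGAC are shown for the members with the highest fold enrichment, so that the kind of sequence behind the values below can be seen. Fold enrichment is the deposited ratio of IP over input. For each of the first 5 genes of either direction whose peak holds GGAC, the 24 bases around the GGAC nearest to the middle of the peak are given 5' to 3' on the strand of the gene, with GGAC in capitals. The base after GGAC played no part in the choice, and in GNAI2, NECTIN3 and GBX2 it is G, which DRACH does not allow. The first 5 come from peaks of the shNC list and the last 5 from peaks of the shY2-2 list.
GNAI2 (chr3:50227142-50227165, + strand): acgctaggctGGACgaagcagaaa
TNS2 (chr12:53045569-53045592, + strand): gggtggggggGGACacacagtcat
NECTIN3 (chr3:111071903-111071926, + strand): tgggagctggGGACgcgcgcgccg
GRHPR (chr9:37429468-37429491, + strand): gaccatgtgaGGACagcatcagcc
PUM2 (chr2:20350659-20350682, - strand): aggagggggaGGACcgccaagagc
NEDD4L (chr18:58046410-58046433, + strand): gtgggggtgaGGACagctgcattt
COMMD2 (chr3:149752375-149752398, - strand): tgcctcaagtGGACagcgcgggtc
GBX2 (chr2:236168213-236168236, - strand): ggcaagcggcGGACgggggctccg
RPUSD3 (chr3:9836169-9836192, - strand): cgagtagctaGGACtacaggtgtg
PRKX (chrX:3713384-3713407, - strand): cagccgcgccGGACcgcgcaccag

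The targeted gene was compared first. YTHDF2 had an FPKM, the fragments per unit of exon length and library size, of 3.56 in the shNC input library and of 1.02 in the shY2-2 input library. The epithelial keratins KRT8, KRT18 and KRT7 had FPKM values from 281 to 649 in both libraries, CDH1 had 9.99 and 5.28 and EPCAM 2.02 and 1.20, while PTPRC, PECAM1 and COL3A1, which mark blood, endothelial and fibroblast cells, stayed below 1. The files give no fragment counts, so the depth of the libraries is unknown and no detection floor can be given. In RNA pooled from a culture, fewer cells that carry an mRNA cannot be told apart from less of that mRNA in each cell.

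The share of peaks found in 1 condition was set beside that of other regions. Of the 4812 distinct 5' UTR peaks of the shNC list, 38.6% had no overlap (95% Wilson interval 37.2 to 40.0), beside 44.1% of all peaks of that list. Of the 4359 of the shY2-2 list, 33.8% had none (32.4 to 35.2), beside 34.6% of all its peaks. For peaks annotated as 3' UTR the shares were 39.0% in shNC (38.3 to 39.8) and 29.6% in shY2-2 (28.9 to 30.3), and for those annotated as exon 59.3% (58.2 to 60.4) and 47.2% (46.0 to 48.4). The 5' UTR share thus lay close to that of 3' UTR peaks in shNC, above it in shY2-2, and below that of exon peaks in both lists. Wilson intervals cover the counting of peaks only. The members lay in 1587 genes in shNC and in 1309 in shY2-2, and 242 shNC-only and 155 shY2-2-only peaks shared a base with another member of their own list, so members are not independent of each other.

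Members were mostly weak peaks. For this reason of selection, the p, FDR and fold enrichment of a member are given as a description. A deposited FDR of at most 0.05 was held by 645 shNC-only peaks (34.7%) and 355 shY2-2-only peaks (24.1%), beside 80.5% and 77.3% of the 5' UTR peaks that overlapped a peak of the other list. At an FDR of at most 0.001 the members numbered 153 (8.24%) and 80 (5.43%), beside 57.6% and 55.1% of the overlapping peaks. Read the other way, 8.25% of the 1854 shNC 5' UTR peaks at an FDR of at most 0.001 had no overlap, and 4.79% of those of shY2-2. The exonic length had a median of 210 nt in shNC-only and 240 nt in shY2-2-only peaks, beside 330 and 355 nt in overlapping peaks.

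**Figure D1:**
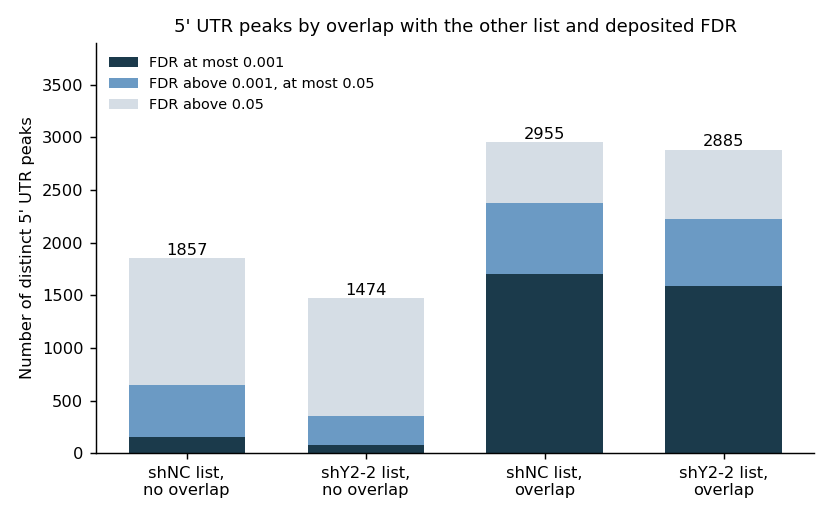
Number of distinct 5' UTR peaks (vertical axis) in each list without and with an overlap on the same strand in the other list, split by deposited FDR; the number above each bar is its total. Peaks at an FDR of at most 0.001 make up 153 of 1857 and 80 of 1474 peaks without overlap, and the largest class of the peaks with overlap.

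The limit of the rule was set by single bases. Inside it, the smallest distance to a block of the other list was 4 bases in shNC (SPATA6L, fold enrichment 2.49) and 2 bases in shY2-2 (LGR4, a receptor of R-spondins, 6.94). Outside it, 5' UTR peaks of ANXA3, ETV5 and RFC2 in shNC and of CCSAP, VPS8 and TRAPPC3 in shY2-2 shared 1 base with a peak of the other list. Over all members the median distance was 7216 bases in shNC and 6420 bases in shY2-2, and 96 and 83 members had a block of the other list within 100 bases.

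For 322 shNC-only peaks (17.3%) and 334 shY2-2-only peaks (22.7%) the other list held no peak in the same gene, beside 0.711% and 0.867% of the overlapping 5' UTR peaks. For the other 1535 shNC-only peaks (82.7%) and 1140 shY2-2-only peaks (77.3%) it held a peak elsewhere in that gene. It held a 5' UTR peak of that gene for 451 and 424 of them. Of the 4706 genes with a 5' UTR peak in either list, 1587 had a shNC-only and 1309 a shY2-2-only peak. At an FDR of at most 0.05 these genes numbered 585 and 330. In 170 genes each list held a 5' UTR peak that the other did not, and in 21 of these genes both had an FDR of at most 0.05. The median distance between such peaks was 872 bases.

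The 5 of these genes with the highest value of their lower fold enrichment are named, and in each of them the lists held peaks at different places of the gene. PON2, a paraoxonase, had a shNC-only peak of 3.43 fold and a shY2-2-only peak of 12.7 fold 10961 bases apart. Its FPKM values were 65.3 and 39.6. The 12.7 fold is the value of 11 IP reads against 1 input read, a kind described below, and this peak shared no base with an exon of the canonical transcript. INO80E, a subunit of the INO80 chromatin remodeller, had peaks of 2.54 fold in shNC and 2.84 fold in shY2-2 with 88 bases between them. UBE2D3, a ubiquitin-conjugating enzyme, had a shNC-only peak of 2.44 fold in exon 1 of the canonical transcript and a shY2-2-only peak of 10.4 fold that lay 179 bases away. CREM, a cAMP-responsive transcription factor, had 2.48 and 3.76 fold, and WARS1, the tryptophanyl-tRNA synthetase, had 2.42 and 3.26 fold. The FPKM of INO80E was 6.07 in shNC and 7.97 in shY2-2, that of UBE2D3 14.2 and 12.8, and that of WARS1 13.8 and 13.2.

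Many members with a high fold enrichment had the values of few reads. The fold enrichment and p of 227 shNC-only peaks (12.2%) and 355 shY2-2-only peaks (24.1%) matched those that a whole number of IP reads against 1 input read gives, to the rounding of the deposited fold and within 0.015 on the log10 scale of p. Overlapping peaks had such values in 3.55% and 3.54% of cases. On this scale 1 IP read is worth 0.763 fold in shNC and 1.16 fold in shY2-2. These values were fitted as those that matched the most peaks of each list, so the numbers of reads are inferred. The members came to between 8 and 23 IP reads (median 10) in shNC and between 6 and 28 (median 7) in shY2-2. The most frequent pair in shY2-2, a fold enrichment of 6.94 with a p of 0.042, was shared by 163 members, and the most frequent in shNC, 6.87 with a p of 0.03, by 51. Whether the peak caller raises an input of 0 reads to 1 is not given in the sources used here. Among all 5' UTR peaks with such values, 68.4% in shNC and 77.7% in shY2-2 had no overlap.

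The median fold enrichment was 2.29 in shNC-only peaks (middle 50% from 1.71 to 4.20) and 3.47 in shY2-2-only peaks (2.03 to 6.94), beside 2.41 and 2.31 in overlapping peaks. Without the peaks that match 1 input read the medians were 2.14 and 2.57.

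**Figure D2:**
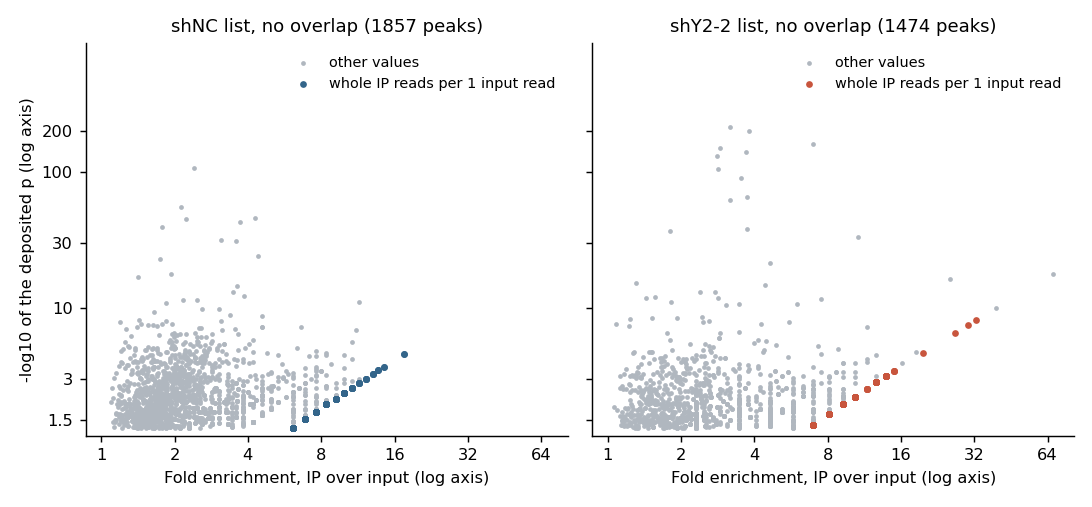
Deposited fold enrichment (horizontal, log axis) against -log10 of the deposited p (vertical, log axis) of every member, for the shNC list at the left and the shY2-2 list at the right; coloured points have the values that whole IP reads against 1 input read give. The 227 and 355 coloured peaks form the lower right edge from 6.1 and 6.94 fold upward, and the 10 peaks with the lowest p have fold enrichments of 1.74 to 4.39 in shNC and 2.81 to 6.94 in shY2-2.

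All 10 shNC-only peaks with the highest fold enrichment, among those with an FDR of at most 0.05 and an FPKM of at least 1 in both input libraries, matched 1 input read. GNAI2, an inhibitory G protein alpha subunit (chromosome 3, 50227012 to 50229153), and MAML3, a Notch coactivator (chromosome 4, 140154034 to 140154184), had 17.5 fold, which corresponds to 23 IP reads. TNS2, a tensin of focal adhesions, and UBQLN1, a ubiquilin, had 14.5 fold. PLEKHJ1 and the adhesion receptor NECTIN3 had 13.7 fold, GRHPR, a glyoxylate reductase, and ENSG00000237493 had 13.0 fold, and PUM2, a Pumilio RNA-binding protein, had 12.2 fold. Their mRNAs were present in both libraries, with FPKM values of 9.02 in shNC and 11.2 in shY2-2 for GNAI2 and of 30.7 and 26.6 for UBQLN1. The distance to the nearest block of the shY2-2 list ranged from 59 bases in MAML3 to 652826 bases in NECTIN3.

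Among shY2-2-only peaks, NEDD4L, a ubiquitin ligase of membrane transporters (chromosome 18, 58045210 to 58054726), had the highest fold enrichment of this set, 32.4 over 1710 nt, which corresponds to 28 IP reads. COMMD2 followed with 18.5 fold, the homeobox gene GBX2 with 16.2 fold and RPUSD3, a mitochondrial pseudouridine synthase, with 15.0 fold. PRKX, ADGRA3, CLN3, UNC119, RPL18 and NT5DC2 all had 13.9 fold, the value of 12 IP reads. The FPKM of NEDD4L was 3.11 in shNC and 3.60 in shY2-2, that of GBX2 1.29 and 2.00 and that of RPL18, a ribosomal protein whose processed copies in the genome can share its reads, 140 and 172.

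Several of these strongest members lay at the start of the canonical transcript. The peaks of COMMD2 and RPL18 covered both the transcript start and the start codon, that of ADGRA3 the start codon, and those of MAML3, NECTIN3 and CLN3 the transcript start. The peaks of GNAI2, TNS2, UBQLN1, PLEKHJ1, GRHPR, NEDD4L, RPUSD3, UNC119 and NT5DC2 shared no base with an exon of the canonical transcript.

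The members with the lowest p were of another kind. The 10 lowest of each list all lay where genes on opposite strands share bases, and the other list held a peak at the same bases that was annotated to the gene on the opposite strand. These genes were chosen after their values were seen. MRPL51, a mitochondrial ribosomal protein (chromosome 12, - strand), had the lowest p of the shNC-only peaks, 1e-108, with 2.40 fold over bases 6492124 to 6493334. All of its 806 exonic bases were covered by a shY2-2 peak annotated to NCAPD2, a condensin subunit on the + strand, with 3.8 fold and a p of 1e-201, and that peak counted as found in shY2-2 only. PTRH2, a peptidyl-tRNA hydrolase (chromosome 17, - strand), and CLTC, the clathrin heavy chain (+ strand), formed the same kind of pair. The shNC-only peak of PTRH2 had 2.23 fold and a p of 6.3e-46, and its 721 bases lay within the shY2-2-only peak of CLTC, with 2.83 fold and a p of 1e-105.

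On chromosome 12 the shNC-only peaks of BLOC1S1 (3.7 fold) and RDH5 (4.26 fold), both on the + strand, shared 946 and 631 bases with shY2-2-only peaks of ITGA7 (3.75 and 3.18 fold) on the - strand. The peaks of BLOC1S1 and RDH5 began at bases 55716067 and 55716066, so they lay at the same place. ITGA7, an integrin alpha subunit, had an FPKM of 0.252 in shNC and 0.284 in shY2-2 and RDH5 had 0.262 and 0.560, while BLOC1S1 had 14.1 and 21.8. The lowest p of the shY2-2-only peaks, 1e-214, belonged to OST4, a subunit of the oligosaccharyltransferase (chromosome 2, 27070472 to 27071653), with 3.18 fold, at FPKM values of 218 and 266. Of its exonic bases, 480 were covered by a shNC peak of AGBL5 on the opposite strand, with 1.85 fold. The shY2-2 list itself also held 1 peak on the opposite strand there. Peaks of the own list on the opposite strand were also held for U2AF1L4, ENSG00000254741, ATP5MK and SNORA57 in shY2-2. In shNC this was so for PCBP1 and HDDC3, while MRPL51, PTRH2, BLOC1S1 and RDH5 had 0 such peaks.

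Of all members, 98 in shNC (5.28%) and 104 in shY2-2 (7.06%) met a peak of the other list on the opposite strand. The share was 2.72% and 3.66% among members with an FDR above 0.05, 24.2% (37 of 153) and 46.2% (37 of 80) among those with an FDR of at most 0.001, and 15 and 17 of the 20 members with the lowest p. Overlapping 5' UTR peaks with an FDR of at most 0.001 met a peak on the opposite strand in 5.06% and 4.78% of cases. The libraries were prepared with a strand-specific method, but whether peaks were called by strand is not given in the sources used here, and without strand the reads of such gene pairs cannot be told apart. Counted on either strand, 116 shNC-only and 43 shY2-2-only peaks with an FDR of at most 0.001 were left.

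**Figure D3:**
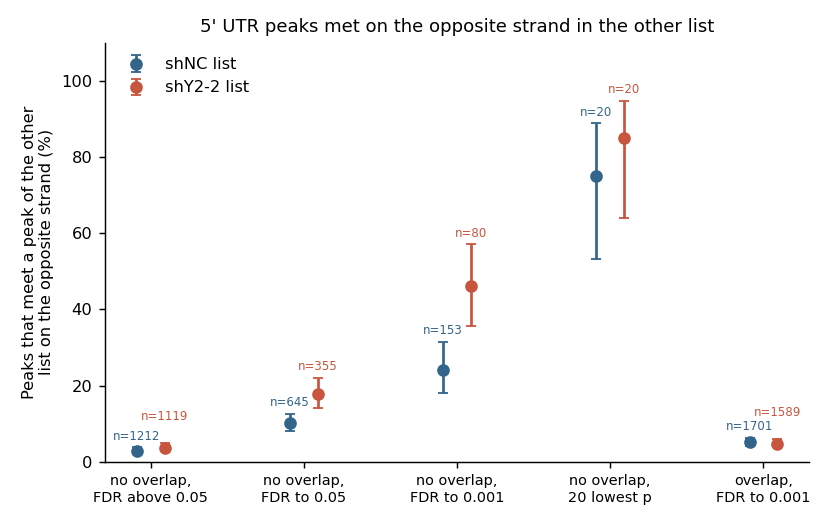
Percent of 5' UTR peaks that share a base with a peak of the other list on the opposite strand (vertical axis, 95% Wilson intervals) for members by deposited FDR, for the 20 members with the lowest p and for overlapping peaks. The share is 2.72% and 3.66% in members with an FDR above 0.05 and the 20 members with the lowest p hold 15 and 17 such peaks.

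The rate at which a 5' UTR peak lacked a counterpart went down with the RNA level of its gene. In shNC it was 54.7% of the 415 peaks in genes with an FPKM below 1 in the shNC input library, 49.5% between 1 and 5, 35.9% between 5 and 20 and 21.7% of the 1016 peaks at 20 and over. In shY2-2 the shares over the same classes were 61.7%, 42.7%, 27.2% and 19.0%. The gene of a member had a median FPKM of 5.06 in shNC and 3.82 in shY2-2 in the input of its own condition, beside 9.63 and 10.1 for overlapping peaks. The part of the RNA level in this was not tested.

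**Figure D4:**
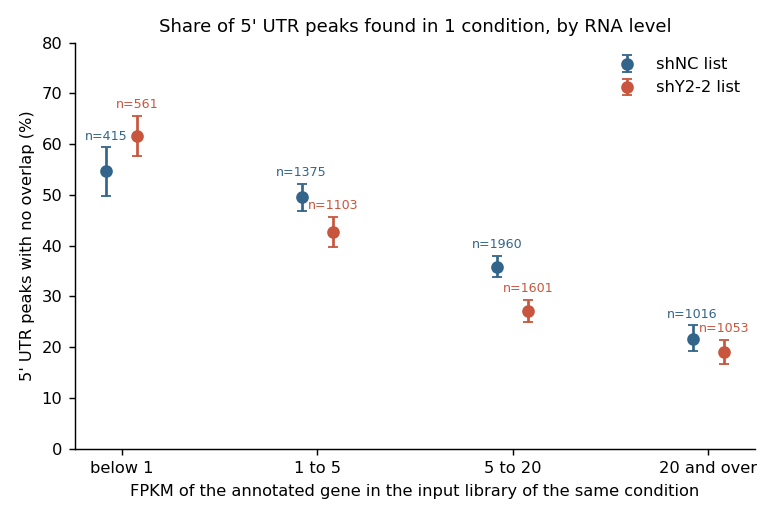
Percent of 5' UTR peaks without overlap in the other list (vertical axis, 95% Wilson intervals) by the FPKM of the gene in the input library of the same condition, for the shNC and the shY2-2 list. The share is 54.7% and 61.7% below an FPKM of 1, and 21.7% and 19.0% at an FPKM of 20 and over.

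The RNA of the member genes was then set against an FPKM of 1 in each input library. The gene had an FPKM of at least 1 in both input libraries for 83.4% of the shNC-only peaks and 73.7% of the shY2-2-only peaks, beside 91.8% and 91.2% of the overlapping peaks. It had at least 1 in the library of the peak and less than 1 in the other for 55 shNC-only (2.96%) and 19 shY2-2-only peaks (1.29%), and the reverse for 24 (1.29%) and 47 (3.19%). It had less than 1 in both libraries for 203 shNC-only (10.9%) and 299 shY2-2-only peaks (20.3%), beside 5.75% and 6.34% of the overlapping peaks. The genes of the last 26 and 22 members were not in the FPKM table.

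Most RNA levels of the member genes were close in both input libraries. The log2 ratio of (FPKM + 1) of shY2-2 over shNC was taken where either library had an FPKM of 1 or more. The 1393 genes with a shNC-only peak had a median of -0.02 and the 1022 genes with a shY2-2-only peak a median of 0.04, beside 0.00 over all 12268 genes. The genes of overlapping peaks had medians of 0.08 in the shNC and 0.09 in the shY2-2 list. A log2 ratio above 1 was seen for 10 genes with a shNC-only peak (0.718%) and 10 with a shY2-2-only peak (0.978%), beside 0.986% of all genes. A log2 ratio below -1 was seen for 37 genes (2.66%) and 19 genes (1.86%), beside 2.14% of all genes. These shares lie near those of all genes.

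**Figure D5:**
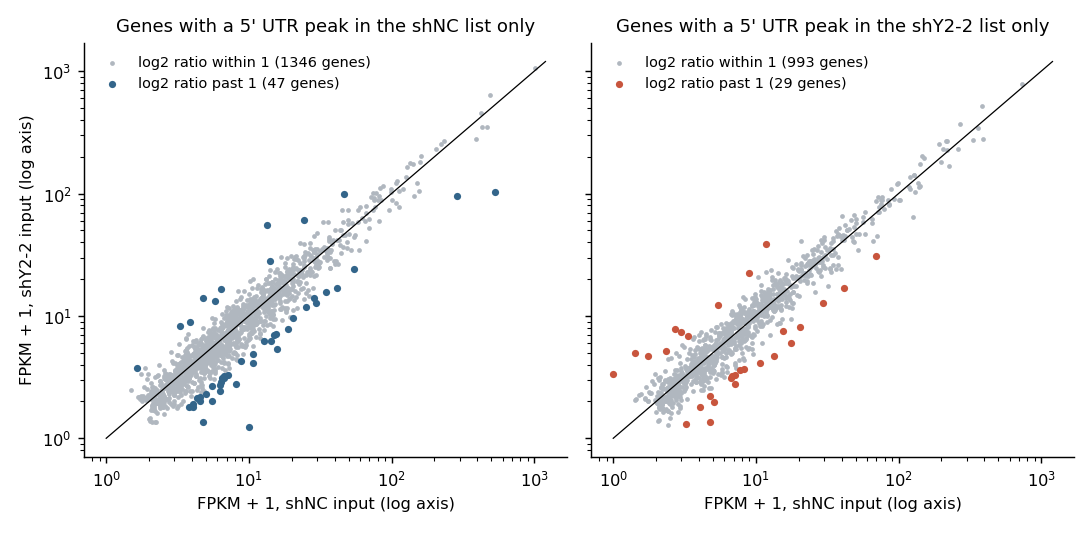
FPKM + 1 of each member gene in the shNC (horizontal) and the shY2-2 input library (vertical), both log axes, for genes with a shNC-only peak at the left and with a shY2-2-only peak at the right; the line marks equal values and coloured points a log2 ratio past 1 in size. Of the coloured genes, 37 at the left and 19 at the right lie below the line, and 10 in each panel lie above it.

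Among members with an FDR of at most 0.05, the lowest log2 RNA ratios of the shNC-only genes were those of HSPA1A, CD164, ARF4, CTNND1 and JUN. HSPA1A, the inducible HSP70 chaperone, had an FPKM of 289 in shNC and 94.4 in shY2-2, a log2 ratio of -1.60. Its peak (chromosome 6, 31815643 to 31815853) covered the start codon in the only exon of the gene, with 1.26 fold and an FDR of 3.55e-06. HSPA1A and HSPA1B are nearly identical, so reads can have been split between them. JUN, a subunit of AP-1, had 13.3 and 5.18, and its peak of 1.40 fold also covered the start codon of a gene with 1 exon. CD164, a sialomucin, had 14.8 and 4.39, the small GTPase ARF4 had 40.5 and 15.8, and CTNND1, the p120 catenin, had 28.5 and 11.7. The peak of ARF4 touched the coding sequence but not the 5' UTR of the canonical transcript. Named for their low ratios, these 5 genes had lower RNA in the library in which no such peak was listed. The shY2-2 list held other peaks in all 5 genes, and its nearest block lay 29 bases from the CTNND1 peak.

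NIPSNAP1, a mitochondrial protein, had the highest ratio of the shNC-only genes, with 12.5 in shNC and 54.2 in shY2-2, a log2 ratio of 2.03. Its peak of 60 nt in exon 4 had 1.40 fold. RSAD1 had 5.37 and 15.6, KBTBD11-OT1 0.639 and 2.75, F2RL2, a protease-activated receptor, 13.0 and 27.3, and the magnesium transporter NIPA1 0.885 and 2.72. Named for their high ratios, these genes had higher RNA in the library without the peak. The peaks of NIPSNAP1 and RSAD1 touched the coding sequence but not the 5' UTR of the canonical transcript.

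Of the shY2-2-only genes, TIMM8B, a chaperone of mitochondrial import, had the highest ratio. Its FPKM was 10.8 in shNC and 37.6 in shY2-2, a log2 ratio of 1.72, and its peak of 3.7 fold covered the start codon in exons 1 and 2. This peak shared 598 bases with a shNC peak of NKAPD1 on the opposite strand. UBR7 had 4.40 and 11.4, ZNF48 1.33 and 4.15, SAR1A, a GTPase of COPII vesicles, 9.42 and 19.7, and the mitotic kinesin KIF2C 19.6 and 39.7. Among the lowest ratios were those of ATP2B1, a calcium pump, with 16.5 and 5.03, ZNF302 with 6.11 and 1.77, LMO7 with 5.75 and 2.23 and SET, an inhibitor of histone acetylation, with 126 and 63.9. The peaks of UBR7, KIF2C, ATP2B1, LMO7 and SET shared no base with an exon of the canonical transcript. That of ZNF48 touched the coding sequence but not the 5' UTR of it. The genes of both directions were named for the highest and the lowest ratios, so the mix of higher and lower RNA among them follows from that choice.

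YTHDF2 itself had a shNC-only peak annotated as 5' UTR (chromosome 1, 28737824 to 28740347), with 1.57 fold and an FDR of 0.236. Its 241 exonic bases touched exon 3 of the canonical transcript, in the coding sequence. The 5' UTR peaks of AXIN1, the Wnt pathway scaffold that the study followed up, overlapped each other in both lists and were no members, with 3.43 fold in shNC and 2.45 fold in shY2-2. They had 960 exonic nt in shNC and 331 in shY2-2, so these values belong to peaks of unlike extent. The shNC list held 1 peak of AXIN1 and the shY2-2 list 4, at FPKM values of 5.78 and 7.77.

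Gene lists tied to the study and to 5' UTR m6A were described by their counts. Of all 4706 genes with a 5' UTR peak in either list, 33.7% had a shNC-only and 27.8% a shY2-2-only peak, and 12.4% and 7.01% had one at an FDR of at most 0.05. The lists hold few such genes, and their counts are read only against these shares. Among m6A writers, erasers and readers, 8 genes had a 5' UTR peak, of which 4 had a shNC-only peak and 1 a shY2-2-only peak (50% and 12.5%, beside 33.7% and 27.8% of all). At an FDR of at most 0.05 these were CBLL1, the HAKAI subunit of the writer complex, with 3.26 fold in shNC and FTO, a demethylase, with 1.95 fold in shY2-2. The peaks of CBLL1 and FTO shared no base with an exon of the canonical transcript. FTO had an FPKM of 0.948 in shNC and 2.37 in shY2-2. Among mRNA decay factors, 10 genes had a 5' UTR peak, 5 with a shNC-only and 2 with a shY2-2-only peak (50% and 20%). At an FDR of at most 0.05 these were 3 genes in shNC and 1 in shY2-2. They were CNOT8 (1.85 fold), CNOT2 (2.00 fold) and CNOT4 (6.87 and 1.71 fold) in shNC and CNOT11 (1.96 fold) in shY2-2. All are CNOT genes, which make up a large part of the 24 genes of this list by its choice. The peaks of CNOT8, CNOT2 and CNOT4 touched the coding sequence but not the 5' UTR of the canonical transcript.

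Among translation initiation factors, 22 genes had a 5' UTR peak, 7 with a shNC-only and 4 with a shY2-2-only peak (31.8% and 18.2%, beside 33.7% and 27.8% of all genes with such a peak). ABCF1 (1.38 fold), EIF5 (5.60 fold) and EIF3M (2.13 fold) passed the FDR limit in shNC and EIF3M (1.30 fold) in shY2-2. The peak of ABCF1 touched the coding sequence but not the 5' UTR of the canonical transcript. The shNC-only peaks of EIF5 and EIF3M shared no base with an exon of it. The peaks of EIF3M lay 29 bases apart. EIF3M had an FPKM of 23.3 in shNC and 23.9 in shY2-2. Among stress genes, 11 had a 5' UTR peak, 3 with a shNC-only and 3 with a shY2-2-only peak (27.3% each). HSPA8, the constitutive HSC70 chaperone, had a shNC-only peak of 1.42 fold with an FDR of 1.26e-15 in exon 5, at FPKM values of 429 and 347. On the canonical transcript this peak lay in the coding sequence, with its middle 1065 nt past the start codon, and touched no 5' UTR base. HSPB1, a small heat shock protein, had a shY2-2-only peak of 1.19 fold at the transcript start.

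Wnt and beta-catenin genes with a 5' UTR peak numbered 19, 5 with a shNC-only and 7 with a shY2-2-only peak (26.3% and 36.8%, beside 33.7% and 27.8% of all genes with such a peak). In shNC these passed the FDR limit in FZD8, a Wnt receptor (8.01 fold), and in DVL2, which relays the receptor's signal (2.43 fold, over the start codon). In shY2-2 they passed it in FRAT2, which binds GSK3 (9.25 fold), FZD2, another receptor (2.17 fold), CSNK1A1, a kinase that primes beta-catenin for degradation (2.09 fold), and TLE1, a corepressor (1.37 fold). The peaks of CSNK1A1 and TLE1 touched the coding sequence but not the 5' UTR of the canonical transcript. The FPKM of FZD2 was 27.1 in shNC and 28.4 in shY2-2, that of DVL2 7.01 and 8.84. CTNNB1, beta-catenin, had a shY2-2-only peak of 1.46 fold at an FDR of 0.248.

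Growth-regulated transcription factors had 11 genes with a 5' UTR peak, 1 with a shNC-only peak (JUN) and 5 with a shY2-2-only peak, which makes 9.09% and 45.5% beside 33.7% and 27.8% of all genes with such a peak. Of the 5, ATF7 (4.24 fold) passed the FDR limit. Cell cycle genes had 16, 7 with a shNC-only and 5 with a shY2-2-only peak (43.8% and 31.2%). E2F5 (3.05 fold) was among those past the limit in shNC and none passed it in shY2-2, where the lowest FDR was 0.229 (CCNG2). The peaks of ATF7 and E2F5 touched the coding sequence but not the 5' UTR of the canonical transcript. Of the 86 genes of cytosolic ribosomal proteins, 71 had a 5' UTR peak, of which 9 had a shNC-only and 6 a shY2-2-only peak (12.7% and 8.45%, again beside 33.7% and 27.8%). RPL12 (1.77 fold) and RPL30 (10.7 fold) passed the limit in shNC and RPL18 (13.9 fold) and RPL26L1 (2.24 fold) in shY2-2. The values of RPL30 and RPL18 match 14 and 12 IP reads against 1 input read. The RPL30 peak shared no base with an exon of the canonical transcript. Of the 107 ZNF genes with a 5' UTR peak, 38 had a shNC-only and 41 a shY2-2-only peak (35.5% and 38.3%), with 8 and 6 genes past the limit. The highest fold enrichments of these were 9.92 in ZNF230 in shNC and 12.7 in ZNF165 in shY2-2. That of ZNF165 matches 11 IP reads against 1 input read, at FPKM values of 0.218 in shNC and 0.387 in shY2-2.

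The position of the members was then read from the canonical transcripts of the GENCODE annotation, release 44 on GRCh38, for 1786 shNC-only and 1420 shY2-2-only peaks in genes with a coding transcript. A 5' UTR of any transcript of the gene was touched by 1571 and 1227 of them. The 5' UTR of the canonical transcript was touched by 49.0% and 50.8%, beside 63.0% and 63.6% of the overlapping peaks. The start codon of the canonical transcript was covered by 27.9% of shNC-only and 29.6% of shY2-2-only peaks, beside 47.7% and 46.6%, and the transcript start by 17.7% and 23.6%, beside 32.5% and 35.2%. Of the shNC-only peaks 27.0%, and of the shY2-2-only peaks 16.1%, touched the coding sequence but not the 5' UTR of the canonical transcript. In overlapping peaks this share was 22.4% and 20.8%, so it was higher in shNC-only and lower in shY2-2-only peaks. Peaks with no base in an exon of the canonical transcript made up 23.1% and 32.7%. The last share was 13.7% and 14.6% in overlapping peaks. Members are shorter than overlapping peaks, and the part of length in these shares was not tested.

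GGAC, searched on the strand of the gene in the reference bases of each peak's exonic blocks, was held by 58.3% of shNC-only and 66.8% of shY2-2-only peaks, beside 77.0% and 76.8% of overlapping peaks. Per kb of peak sequence there were 4.63 and 4.33 GGAC, beside 4.84 and 4.64. In peaks of 150 to 350 nt the shares were 61.2% and 65.9%, beside 69.2% and 67.5%, and per kb there were 4.80 and 5.24 GGAC, beside 5.08 and 4.90. At this length the density of shY2-2-only peaks was thus above, and that of shNC-only peaks below, that of the overlapping peaks of their list. In the central 100 nt, or the whole of a shorter peak, GGAC was held by 34.4% and 37.4%, beside 38.9% and 37.7%. The first 100 nt of 10686 canonical transcripts held GGAC in 39.9% of cases. The shortest members and overlapping peaks had 60 nt, so some of these peak windows were shorter than 100 nt. A match to GGAC, counted whatever base follows it, describes the sequence and is no measured m6A site. The transcript start, where m6Am lies if the first base is A, was A in 43.3% of the shNC-only and 45.3% of the shY2-2-only peaks that covered it, beside 45.9% of all canonical transcripts. GC content had medians of 55.9% and 57.5%, beside 56.2% and 56.7%.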

How the data were processed

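The members and the gene lists were chosen with earlier results of these data known. m6A-Seq and RNA-Seq of A549 cells were taken from 4 libraries, and samples were grouped by their labels. The authors used HISAT2 to align reads to GRCh38, called peaks with the R package exomePeak on the IP against the input library of each condition and annotated them with ChIPseeker. The submitters' processing notes also name fastp and HOMER. Tool versions and the limit used to call peaks are not given in the sources used here. For each peak the authors deposited a p-value, the same p-value and an FDR as log10 scores, and a fold enrichment, which is the IP to input ratio on a linear scale. The deposited FPKM values were calculated by the authors with StringTie from the input libraries. FPKM values are not counts, so no count test was run, and with 1 library of each kind per condition no p-value between conditions was computed.

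A peak's strand is that of its annotated gene. Repeated rows at 1 position were counted once. Overlap needed at least 1 base of the exonic blocks. Ratios are log2 of FPKM plus a pseudocount of 1, for the 12268 genes that reached an FPKM of 1 in either library, and understate changes of low genes. The number of reads behind most peaks is unknown. The reads of peaks with 1 input read were inferred from the deposited fold enrichment and from the binomial p-value that so many IP reads give. The fold enrichment that 1 IP read is worth was fitted to match the most peaks of each list. Shares carry 95% Wilson intervals.

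Named genes were, per direction, the 10 members with the highest fold enrichment (FDR of at most 0.05, FPKM of at least 1 in both libraries), members of the gene lists at that FDR, the 5 highest and 5 lowest log2 ratios, up to 5 genes with members in both directions, the members closest to the rule's limit, YTHDF2 and AXIN1. Members with the lowest p, and genes named for them, were chosen after their values were seen. Some genes that the rule names are not reported here. Alternatives were other limits on FDR, fold enrichment, FPKM and overlap, another pseudocount and other reference windows. The overlap, distance and ratio steps were tested on simulated data. Python 3.11.15 was used with matplotlib 3.10.9, pysam 0.24.0, SciPy 1.17.1, NumPy 2.4.6 and pandas 2.3.3.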

Additional observations from a re-analysis of the deposited data

How the results depend on the processing

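No paired analysis was possible because each condition has 1 library of each kind. Of 60 values under alternatives, 26 stayed within 1.5 times a count or within the interval of a share or median, and 34 moved. Peaks numbered 645 in shNC and 355 in shY2-2 at an FDR of at most 0.05, 153 and 80 at 0.001 (116 and 43 with overlap on either strand, chosen after seeing the data), and 490 and 665 at a fold enrichment of at least 4. The 6 other planned overlap, reference and FPKM rules gave 1549 to 2299 and 1087 to 1958. The median log2 ratio was 0.026 and 0.091 where either library had an FPKM of 5 or more, and -0.058 and 0.058 for peaks with an FDR of at most 0.05, so the sign of the shNC-only median depends on the filter. Genes with a log2 ratio above 1 numbered 21 and 28 with a pseudocount of 0.1 and 4 and 3 at an FDR of at most 0.05, and genes below -1 numbered 69 and 39, and 15 and 4. GGAC was held by 69.5% and 73.2% at an FDR of at most 0.05, by 61.2% of shNC-only peaks of 150 to 350 nt, and by 34.4% and 37.4% in the central 100 nt. The start codon share was 44.5% and 40.9% for any coding transcript and 35.9% and 36.2% at an FDR of at most 0.05. The median fold enrichment was 2.87 in shY2-2 at an FDR of at most 0.05, 2.18 and 2.84 where both libraries had an FPKM of 1 or more, and 2.14 and 2.57 without peaks that match 1 input read (chosen after seeing the data). A stricter limit on FDR or fold enrichment keeps a part of the same called peaks, so its count can only be smaller. The cause of the other changes was not tested. Depth is unknown, so the reads behind a missing peak cannot be given.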

Other observations

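Peak borders followed a step of 30 nt. An exonic length of a multiple of 30 nt, or 1 nt more, was found in 81.7% of shNC-only and 70.5% of shY2-2-only peaks. Of the 96 shNC-only peaks within 100 bases of a block of the other list, 75 lay 29, 59 or 89 bases away, or 1 base less, and of the 83 shY2-2-only peaks 68 did. Such distances are those of 1 to 3 steps between the borders of neighbouring peaks, as in EIF3M.

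Some genes held several members. IL4I1, an amino acid oxidase, had 5 shNC-only peaks between 1.17 and 2.80 fold at FPKM values of 0.0533 in shNC and 0.224 in shY2-2, none with an FDR of at most 0.05. Genes with 2 or more members numbered 233 in shNC and 151 in shY2-2.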
